A study of Mus musculus with 10 samples.

Results

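Microglial long noncoding RNAs of 2 kinds were followed in this series. Of 46152 genes counted, 9 were chosen by symbol and matched by NCBI gene identifier, namely 4 nuclear RNAs (Malat1, Neat1, Kcnq1ot1 and Miat) and 5 RNAs that host small nucleolar RNAs in their introns or exons (Gas5, Snhg1, Snhg6, Snhg8 and Snhg12). All 9 were found. The cells came from brains of C57BL/6J mice, 8 to 12 weeks old by the study's methods, and were CD11b+ positively selected microglia, so any other CD11b+ cell of the preparation was selected with them. Controls received a vehicle of 0.5% Hydroxymethyl Propyl-cellulose with 0.1% Tween 80 by gavage. Treated mice received GW2580, which blocks the kinase activity of CSF1R, the receptor through which microglia receive survival signals, at 80 mg/kg/d, and both were given over 8 days. There were 5 libraries per group, each with 2 males and 3 females, and libraries carry their group and their replicate number as names. Nothing in the labels says that animals were pooled, and p-values measure the spread between these libraries.

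The nuclear RNAs stay largely at or near chromatin or in nuclear bodies. Malat1 is an abundant RNA of nuclear speckles, Neat1 is the scaffold on which paraspeckles form, Kcnq1ot1 silences genes of an imprinted cluster from the paternal chromosome, and Miat lies in a nuclear domain of its own. The snoRNA hosts are used differently: their introns carry box C/D or box H/ACA snoRNAs, which guide the modification of ribosomal and spliceosomal RNA, while the spliced host RNA is exported, often begins with a run of pyrimidines like the mRNAs of ribosomal proteins, and is commonly removed by nonsense-mediated decay.

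The start of each gene is shown to set the nuclear RNAs beside the hosts in this feature. RefSeq (GRCm38.p6) start windows were matched for 7 of the 9 genes. Each line holds 25 bases before and 35 bases from the annotated start, 5′ to 3′ on the strand of the gene, and capitals mark the unbroken run of C or T that begins at the start base.
Malat1, chr19:5802638-5802697, minus strand: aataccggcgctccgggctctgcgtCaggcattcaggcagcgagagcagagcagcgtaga
Kcnq1ot1, chr7:143296513-143296572, minus strand: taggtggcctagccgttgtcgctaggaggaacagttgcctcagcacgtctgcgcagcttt
Miat, chr5:112228914-112228973, minus strand: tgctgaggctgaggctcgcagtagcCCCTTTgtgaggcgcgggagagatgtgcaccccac
Gas5, chr1:161035141-161035200, plus strand: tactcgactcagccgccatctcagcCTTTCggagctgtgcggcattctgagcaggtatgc
Snhg1, chr19:8723462-8723521, plus strand: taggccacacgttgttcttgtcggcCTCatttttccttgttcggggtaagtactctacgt
Snhg8, chr3:123508302-123508361, minus strand: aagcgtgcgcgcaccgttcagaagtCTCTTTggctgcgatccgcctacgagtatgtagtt
Snhg12, chr4:132308653-132308712, plus strand: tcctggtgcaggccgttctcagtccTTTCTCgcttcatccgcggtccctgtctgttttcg
The run was 5 bases in Gas5, 6 in Snhg8 and Snhg12 and 3 in Snhg1. Among the nuclear RNAs it was 6 bases in Miat, 1 in Malat1 and 0 in Kcnq1ot1. A start followed on the same strand by C or T in each of the first 5 bases was present in 4.44% of all 32851 windows and in 23.1% of the 78 windows of cytosolic ribosomal protein genes. It was present in 20% of 15 windows of other snoRNA hosts and in 9.09% of 11 windows of other nuclear long noncoding RNAs, and in 3 of 5 windows of the member hosts, where the window not shown is a second one of Gas5 that lacks it and starts outside the counted span. The counted exons of Gas5 began upstream of the start shown, at position 161034916.

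The gene models decide which fragments can be counted. Malat1 (chr19:5795690-5802672), Neat1 (chr19:5824708-5845480) and Kcnq1ot1 (chr7:143213111-143296547) were each counted over 1 exon that fills the whole span, and Miat (chr5:112213228-112228948) over 7 exons with 8760 bases. Malat1 and Neat1 are neighbours on the minus strand. The hosts Gas5 (chr1:161034916-161038539), Snhg1 (chr19:8723487-8726326), Snhg6 (chr1:9942025-9944118) and Snhg12 (chr4:132308678-132311024) have 12, 10, 4 and 5 exons, which cover from 16.8% (Snhg1) to 25.8% (Snhg12) of their spans. Snhg8 (chr3:123507552-123508336) has 1 exon of 785 bases. A fragment from an intron of the 4 spliced hosts was therefore recorded as lying on no exon, unless an exon of another gene lay there, whereas every uniquely aligned fragment inside the spans of Malat1, Neat1 and Kcnq1ot1 lay on an exon.

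The 3′ end of Malat1 is shown because a second counted gene lies in it. Mascrna, the tRNA-like small RNA that is cut from the Malat1 transcript, occupies the 58 bases in capitals, and an A-rich stretch with a run of 12 A stands shortly before it.
Malat1 3′ end, chr19:5795924-5796081, minus strand: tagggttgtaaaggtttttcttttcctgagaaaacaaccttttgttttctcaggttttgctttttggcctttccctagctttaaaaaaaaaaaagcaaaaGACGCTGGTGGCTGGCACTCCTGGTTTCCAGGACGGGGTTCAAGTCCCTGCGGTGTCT
Fragments over both genes were ambiguous and were not counted, and Mascrna was at 0 in all 10 libraries. The sequence is that of the GENCODE vM21 transcript on GRCm38, which has the same ends as the counted gene.

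Since the counting ignored strand, overlap with genes on the opposite strand bears on the counts. Kcnq1ot1 shares 125 of its 83437 exon bases with Kcnq1, inside which it lies. Fragments of unspliced Kcnq1 RNA cannot be told apart from Kcnq1ot1 in these counts. Snhg6 shares 308 of 407 bases with Mcmdc2, a meiosis gene, and had 1 to 10 counts per library. Levels are given as CPM, counts relative to the scaled size of the library. Mcmdc2 had a log2 fold change of -0.09 with GW2580 and was not called. Snhg6 did not exceed 1 CPM in any library, and its fold change was not tested.

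Fragments assigned to genes numbered 12550418 to 26079343 per library. All 9 microglial markers were detected in every library, with a summed level of 12090 to 27565 CPM after vehicle and 17038 to 56236 CPM after GW2580. The 8 astrocyte markers summed to 192 to 3081 CPM after vehicle and 195 to 638 CPM after GW2580, and those of oligodendrocytes to 163 to 17906 and 178 to 1779 CPM. Both lists had their highest mean log2 CPM in vehicle 5 and vehicle 2, and none of their members was at 0 in any library. Markers of ependymal cells and choroid plexus summed to 1201 to 25666 CPM after vehicle, highest in vehicle 5, and to 149 to 3523 CPM after GW2580. Neuronal markers summed to 50.8 to 495 CPM, those of monocytes and granulocytes to 154 to 12769 CPM, those of endothelial cells to 35.7 to 67.2 CPM and those of border macrophages to 22.1 to 131 CPM over all libraries, and the endothelial marker Cldn5 was at 0 in all 10. On the first principal component of the other 28411 genes (38.2% of the variance), vehicle 5 was at -219 and the other vehicle libraries at 32.5 to 60.6, while GW2580 5 was at 71.7 and the other GW2580 libraries at -36.5 to 17.7. GW2580 5 thus lay near vehicle 1 to 4, whereas vehicle 5 lay far from both groups. The groups are those of the labels. Whether vehicle 5 and GW2580 5 carry the right labels cannot be told from the sources used here, which bears on every fold change below. Results are therefore given with and without them.

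Levels per length differed widely among the members. As CPM per kilobase of counted exon (mean ± SD, n = 5 vehicle libraries), Malat1 stood at 1437 ± 722, Gas5 at 44.3 ± 14.8 and Snhg1 at 21.3 ± 9.82. Snhg12 followed at 11.6 ± 5.65, Snhg8 at 10.9 ± 4.53 and Neat1 at 8.82 ± 3.27. The lowest were Miat at 0.865 ± 0.296, Kcnq1ot1 at 0.670 ± 0.0623 and Snhg6 at 0.655 ± 0.419. Fragments over the 308 of 407 bases that Snhg6 shares with Mcmdc2 were ambiguous and not counted. Its level per length is therefore understated, and its last place cannot be read as a rank. To a lesser degree this holds for Gas5 (23.2% of bases shared) and Snhg8 (16.6%). The order from Malat1 to Gas5, Snhg1 and Snhg12 held for each neighbouring pair in 5 of 5 vehicle and 5 of 5 GW2580 libraries. Snhg12 and Snhg8 exchanged places in 2 libraries of each group, and Snhg8 was above Neat1 in 4 of 5 vehicle but 1 of 5 GW2580 libraries. Miat was above Kcnq1ot1 in 3 vehicle and 2 GW2580 libraries, so these neighbours did not differ beyond their spread. Malat1 alone took 0.173% to 1.5% of all assigned fragments of a library.

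Of the 8 members tested, 0 changed with GW2580 (edgeR, fold change over 2 and unadjusted p under 0.05), against 10.7% of all 28419 genes tested (6.7% lower and 4.01% higher with GW2580). None of the 8 had an unadjusted p under 0.05 at any fold change, none had an adjusted p under 0.05, and DESeq2 also called 0. A p above the threshold does not show that the levels were alike, and the standard errors below leave room for changes of more than 2-fold in several members. The smallest p that the exact permutation test can give with 5 against 5 libraries is 0.00794.

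Malat1 had 9412, 11670, 15776, 11300 and 2027 CPM in vehicle 1 to 5, and 1732, 3961, 3994, 1086 and 11993 CPM in GW2580 1 to 5. Vehicle 1 to 4 were above GW2580 1 to 4, while vehicle 5 and GW2580 5 each lay within the range of the other group. The log2 fold change was -1.14 ± 0.69 (SE; p = 0.123, adjusted p = 0.448 in edgeR over all genes; exact permutation p = 0.127). Without vehicle 5 and GW2580 5 it was -2.26 ± 0.66 (adjusted p = 0.0306 in edgeR). In bulk RNA a smaller share of cells with much Malat1 and less Malat1 per cell cannot be told apart.

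Neat1 had the higher mean after GW2580, unlike Malat1. It had 188, 99.9, 199, 146 and 283 CPM in vehicle 1 to 5, and 268, 189, 398, 208 and 170 CPM in GW2580 1 to 5. The groups overlapped, and vehicle 5 had the highest level of its group and GW2580 5 the lowest of its own. The log2 fold change was 0.43 ± 0.37 (edgeR, p = 0.265, adjusted p = 0.591; exact permutation p = 0.238), 0.65 ± 0.35 without these libraries (edgeR, p = 0.0854) and 0.19 without GW2580 3 alone.

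The ratio of both RNAs within a library does not depend on the scaling of libraries. Malat1 counts were 50.1, 117, 79.2, 77.2 and 7.17 times those of Neat1 in vehicle 1 to 5. In GW2580 1 to 5 they were 6.46, 20.9, 10.05, 5.22 and 70.4 times those of Neat1. The ratio in vehicle 5 was within the range of GW2580 1 to 4 and that in GW2580 5 within the range of vehicle 1 to 4.

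Kcnq1ot1 had the narrowest range of the 9 members, with a highest level 1.62 times the lowest. Its values were 60.6, 47.0, 56.8, 57.2 and 57.7 CPM in vehicle 1 to 5, and 76.0, 57.1, 54.0, 66.3 and 62.2 CPM in GW2580 1 to 5. The groups overlapped, with a log2 fold change of 0.18 ± 0.26 (edgeR, p = 0.511, adjusted p = 0.768; exact permutation p = 0.159) and 0.11 ± 0.26 without vehicle 5 and GW2580 5 (edgeR, p = 0.687).

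Miat was low in all libraries, with 48 to 235 counts. It had 9.09, 11.1, 7.52, 5.51 and 4.72 CPM after vehicle and 6.01, 8.24, 2.67, 11.1 and 5.96 CPM after GW2580, in the order of replicates. The ranges overlapped, and the log2 fold change was -0.15 ± 0.38 (edgeR, p = 0.690, adjusted p = 0.869; exact permutation p = 0.611). Scaled by library size alone, its direction turned to 0.24 (edgeR, adjusted p = 0.824).

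**Figure D1:**
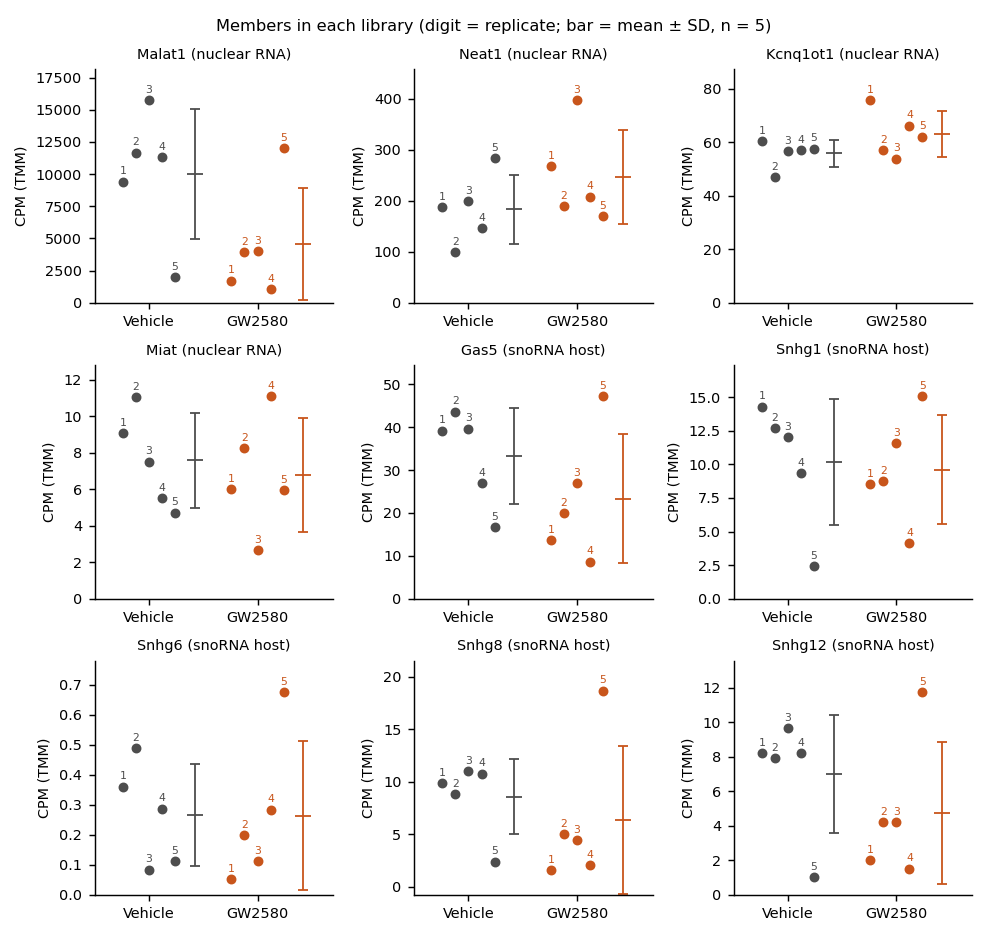
CPM after TMM scaling of each of the 9 members (vertical axes, linear, 1 per panel) in each library, vehicle in grey and GW2580 in orange, with the replicate number above each point and the mean ± SD (n = 5) beside each group. Malat1 in vehicle 5 (2027 CPM) sits among GW2580 1 to 4 and GW2580 5 (11993 CPM) among vehicle 1 to 4, while Kcnq1ot1 stays between 47.0 and 76.0 CPM.

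Among the snoRNA hosts, Gas5, which carries 8 annotated snoRNA genes, was the most abundant. It had 39.2, 43.6, 39.7, 27.0 and 16.8 CPM in vehicle 1 to 5, and 13.7, 19.97, 26.9, 8.66 and 47.3 CPM in GW2580 1 to 5. Vehicle 1 to 4 were above GW2580 1 to 4, the closest being vehicle 4 and GW2580 3, and GW2580 5 was above all vehicle libraries. The log2 fold change was -0.51 ± 0.43 (edgeR, p = 0.257, adjusted p = 0.584; exact permutation p = 0.190) and -1.21 ± 0.33 without vehicle 5 and GW2580 5 (edgeR, p = 0.00220, adjusted p = 0.0236).

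Snhg1, also the host of 8 snoRNA genes, had 14.3, 12.7, 12.03, 9.36 and 2.42 CPM in vehicle 1 to 5. In GW2580 1 to 5 it had 8.52, 8.76, 11.6, 4.12 and 15.1 CPM. The lowest of the 10 values was that of vehicle 5 and the highest that of GW2580 5. Its log2 fold change was -0.08 ± 0.44 (edgeR, p = 0.862, adjusted p = 0.946; exact permutation p = 0.968), which turned to 0.07 when libraries were scaled by size alone, and -0.65 ± 0.32 without these libraries (edgeR, p = 0.0564).

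Snhg8, with the H/ACA snoRNA gene Snora24 inside its exon, had 9.89, 8.82, 11.0, 10.8 and 2.42 CPM in vehicle 1 to 5 and 1.59, 5.01, 4.45, 2.08 and 18.7 CPM in GW2580 1 to 5. Vehicle 1 to 4 lay in a narrow range above GW2580 1 to 4, and GW2580 5 was above all other libraries. The log2 fold change was -0.44 ± 0.61 (edgeR, p = 0.484, adjusted p = 0.752; exact permutation p = 0.254) and -1.73 ± 0.36 without vehicle 5 and GW2580 5 (edgeR, p = 0.000275, adjusted p = 0.0103). With single libraries left out it ranged from -1.48 (without GW2580 5) to -0.18 (without GW2580 1).

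Snhg12, the host of 4 snoRNA genes, repeated this arrangement with 8.23, 7.91, 9.69, 8.21 and 1.01 CPM in vehicle 1 to 5 and 2.00, 4.22, 4.22, 1.51 and 11.8 CPM in GW2580 1 to 5. Vehicle 5 had the lowest value of all libraries. The log2 fold change was -0.56 ± 0.59 (edgeR, p = 0.357, adjusted p = 0.665; exact permutation p = 0.444) and -1.61 ± 0.35 without both libraries (edgeR, p = 0.000398, adjusted p = 0.0118). Snhg6 had 0.0514 to 0.677 CPM, too few counts to compare.

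Without vehicle 5 and GW2580 5, 4 of the 8 tested members (Malat1, Gas5, Snhg8 and Snhg12) fell by the criteria above, against 15.2% of 27215 genes that fell in the same fit, and 0 rose, against 7.08%. Without GW2580 5 alone the same 4 fell, with Malat1 at -1.99 (edgeR, adjusted p = 0.128), against 17.6% of 27585 genes called, 13.2% lower and 4.39% higher. Without vehicle 5 alone 0 were called, against 12.9% of 28120 genes (6.74% lower and 6.18% higher). Both libraries were left out with this known, so these p-values are not independent of that choice. The levels of astrocyte, oligodendrocyte and choroid plexus markers were higher in vehicle 5 than in GW2580 5, whose astrocyte and oligodendrocyte means (3.36 and 3.63 log2 CPM) were near those of vehicle 3 (3.16 and 3.42). Its choroid plexus mean (5.66) was the highest of the GW2580 libraries and like that of vehicle 3 (5.66), against 10.3 in vehicle 5. Monocyte and granulocyte markers went the other way, with means of 4.305 log2 CPM in vehicle 5 and 6.64 in GW2580 5. Their means were 6.12 to 8.97 in vehicle 1 to 4 and 4.23 to 7.601 in GW2580 1 to 4, so these ranges overlapped. Their median log2 fold change was -1.11, with 4 of 5 below 0, and -1.63 without vehicle 5 and GW2580 5. The part of other cells in the fold changes of the members was not tested. With single libraries left out, the log2 fold change ranged from -1.99 to -0.88 for Malat1, from -1.03 to -0.29 for Gas5, from -1.32 to -0.33 for Snhg12 and from 0.19 to 0.64 for Neat1.

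**Figure D2:**
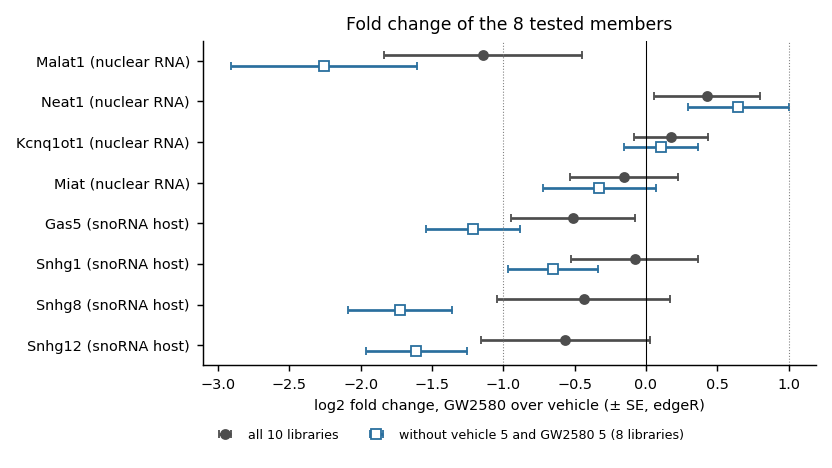
Log2 fold change of GW2580 over vehicle (horizontal axis, ± SE, edgeR) for the 8 tested members, from all 10 libraries (filled circles) and without vehicle 5 and GW2580 5 (open squares), with dotted lines at a 2-fold change. Malat1 moves from -1.14 to -2.26 and Snhg8 from -0.44 to -1.73, while Kcnq1ot1 stays near 0.

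Set against each other, the nuclear RNAs and the hosts overlapped in their fold changes. The median log2 fold change was 0.48 higher in the 4 nuclear RNAs than in the 4 tested hosts, and 1.30 higher without vehicle 5 and GW2580 5. With single libraries left out it ranged from 0.13 (without GW2580 4) and 0.28 (without GW2580 1) to 1.14 (without GW2580 5), and it was 0.30 with the percentage of fragments on no exon as a covariate. Malat1 had the lowest value of the 8 (-1.14), below each of the hosts, and Neat1 the highest (0.43). The mean log2 CPM of the nuclear RNAs exceeded that of the hosts by 3.59, 3.48, 3.66, 3.62 and 5.08 in vehicle 1 to 5, and by 4.73, 4.12, 3.81, 5.07 and 3.06 in GW2580 1 to 5. Vehicle 5 had the largest of these differences and GW2580 5 the smallest, and the hosts had a mean log2 CPM of 3.63 to 3.92 in vehicle 1 to 4, 1.74 in vehicle 5, 1.77 to 3.15 in GW2580 1 to 4 and 4.33 in GW2580 5.

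**Figure D3:**
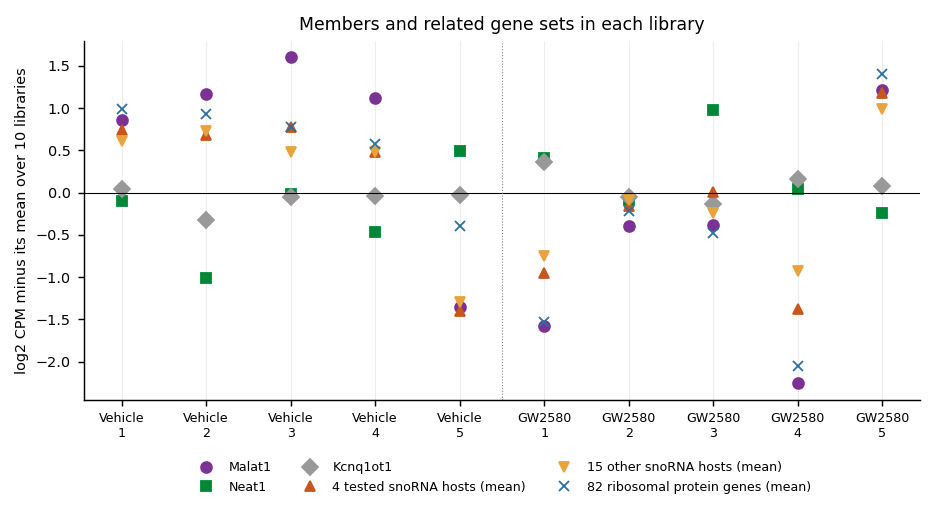
Log2 CPM of Malat1, Neat1 and Kcnq1ot1 and mean log2 CPM of 3 gene sets, each minus its own mean over the 10 libraries (vertical axis), in each library (horizontal axis), with a dotted line between vehicle and GW2580. In vehicle 1 to 4 and GW2580 5, Malat1, the 4 tested hosts, 15 other hosts and 82 listed ribosomal protein genes lie above 0. The same points lie below 0 in vehicle 5, GW2580 1, GW2580 2 and GW2580 4, and Kcnq1ot1 stays near 0.

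Of 7579 other genes with a mean of at least 20 CPM, those whose log2 CPM followed Malat1 most closely over the 10 libraries were Mthfsl (Pearson r = 0.991), Vkorc1, which recycles vitamin K (0.990), and Cnpy2 (0.989). For Gas5 they were Serf2 (0.983), Ppp1r11, an inhibitor of protein phosphatase 1 (0.978), and Anp32a (0.978). Gas5 followed Malat1 with r = 0.943 and rank 222 among these genes. Neat1 and Kcnq1ot1 had r = -0.57 and -0.55 with Malat1. These values share the libraries, their depth and their scaling, and are given as a description.

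Transcripts of the snoRNAs were hardly counted. The members hold 22 annotated snoRNA genes, of which 5 were at 0 in all libraries and none exceeded 65 counts in a library. Snora24 in Snhg8 and Snord87 in Snhg6 were both at 0, as was Snord47 in Gas5. The 3 nested snoRNA genes that passed the filter, 2 in Gas5 and 1 in Snhg1, had log2 fold changes of -0.33 to -0.56, and 0 were called. Their hosts had log2 fold changes of -0.51 (Gas5) and -0.08 (Snhg1).

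The 15 other snoRNA hosts tested had a median log2 fold change of -0.40, with 12 below 0 and 0 called. Snhg17 had 23.4 CPM after vehicle and 13.9 CPM after GW2580 (log2 fold change -0.75 ± 0.34, edgeR, adjusted p = 0.323; exact permutation p = 0.0159) and did not reach a fold change of 2, while Snhg15, the next in level, was at -0.14 ± 0.55. Their mean log2 CPM was 2.86 to 3.10 in vehicle 1 to 4, 1.09 in vehicle 5, 1.46 to 2.29 in GW2580 1 to 4 and 3.37 in GW2580 5, and so followed the 4 tested hosts. Without vehicle 5 and GW2580 5, 9 of 15 fell, against 15.2% of all genes, among them Snhg15 at -1.14 ± 0.33. The median over all genes tested was -0.03 with all libraries.

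The 12 other long noncoding RNAs listed as nuclear and tested had a median of 0.17, with 4 below 0 and 0 called. Their mean log2 CPM was 2.67 to 3.81 over all 10 libraries, and their place in the cell was not measured. The most abundant were Norad, which binds Pumilio proteins and is not confined to the nucleus, at 53.9 CPM and Dleu2, a host of microRNAs, at 49.6 CPM. Their log2 fold changes were -0.07 ± 0.60 and 0.54 ± 0.78. Dleu2 had 221 CPM in GW2580 5 and 10.1 to 27.5 CPM in the other GW2580 libraries, and without vehicle 5 and GW2580 5 its log2 fold change turned to -1.51 ± 0.32 (edgeR, adjusted p = 0.0102), a called fall, and that of Norad to 0.82 ± 0.44 (edgeR, adjusted p = 0.197). Without vehicle 5 and GW2580 5, 2 of the 12 rose and 2 fell, against 7.08% and 15.2% of all genes.

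Proteins that work with these RNAs showed few called genes. None of 16 paraspeckle protein genes was called (median 0.19), among them Hnrnpk, at 581 CPM, and Ewsr1, at 364 CPM. None of 17 genes for nuclear speckle and splicing proteins was called (median 0.02), where Srrm2, a core protein of speckles, had a log2 fold change of -0.69 ± 0.51 (-1.52 ± 0.44 and called without vehicle 5 and GW2580 5) and Srsf5 of -0.03 ± 0.37. Of 17 genes for the assembly and function of snoRNA particles 1 fell, against 6.7% of all genes tested. It was Nhp2, a core protein of H/ACA particles (log2 fold change -1.29 ± 0.53, edgeR, adjusted p = 0.302). Its call was lost in 6 of 20 alternatives, without vehicle 1, vehicle 2, GW2580 1, GW2580 3 or GW2580 4 and with the percentage on no exon as a covariate. Fbl, the methyltransferase of C/D particles, was at -0.43 ± 0.41 and Nop56 at -0.02 ± 0.34.

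Of 13 factors of nonsense-mediated decay 1 fell, against 6.7% of all genes tested. It was Rbm8a, a protein of the exon junction complex (-1.18 ± 0.51, edgeR, adjusted p = 0.316). Its call was lost in 10 of 20 alternatives, among them sex or the percentage on no exon as a covariate and each of vehicle 1 to 4 and GW2580 1 to 4 left out. Eif4a3, which sits in the same complex, was at -0.07 ± 0.35. Nhp2 and Rbm8a had 34.4 and 58.0 CPM in vehicle 5, and 81.0 and 160 CPM in GW2580 5, against 9.23 to 38.6 CPM and 21.6 to 75.1 CPM in GW2580 1 to 4. In both genes vehicle 5 lay within the range of GW2580 1 to 4, and GW2580 5 lay above that range.

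Of 82 genes listed by symbol as cytosolic ribosomal proteins 6 fell and 0 rose, against 6.7% of all genes tested that fell. A count of 6 in 82 is near that background. The median was -0.64, with 78 below 0. The list includes Rps6kl1 (-0.95, not called), a kinase-like gene whose symbol matched, and the values of the list include it. The fall was called for Rps6 (-1.06 ± 0.39, edgeR, adjusted p = 0.280), Rpl15 (-1.11 ± 0.43, adjusted p = 0.283), Rpl29 (-1.17 ± 0.49, adjusted p = 0.302) and 3 others. Of 20 alternatives the call of Rps6 was lost in 0, that of Rpl15 in 1 (without GW2580 1) and that of Rpl29 in 5 (without vehicle 2, GW2580 1, GW2580 3 or GW2580 4 and with the percentage on no exon as a covariate). The most abundant, Rpl13, was at -1.15 ± 0.57 (edgeR, adjusted p = 0.363). Their mean log2 CPM was 6.14 to 6.55 in vehicle 1 to 4, 5.16 in vehicle 5, 3.51 to 5.34 in GW2580 1 to 4 and 6.96 in GW2580 5. Without vehicle 5 and GW2580 5, 72 of 82 fell, against 15.2% of all genes.

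Genes near the members on the chromosome were also followed. In the imprinted domain of Kcnq1ot1, 3 of 11 genes fell with all libraries, against 6.7% of all genes tested. They were Trpm5, a cation channel (-1.71 ± 0.54, edgeR, adjusted p = 0.280), Osbpl5, an oxysterol-binding protein (-1.90 ± 0.72, adjusted p = 0.280), and Cdkn1c, an inhibitor of the cell cycle (-1.85 ± 0.86, adjusted p = 0.338). Cdkn1c had 457 CPM in vehicle 5 and 13.4 to 49.8 CPM in the GW2580 libraries, and without vehicle 5 its log2 fold change was 0.31 and not called. For Osbpl5, with 79.2 CPM in vehicle 5, the value without it was -0.44 and not called, and Trpm5 was at -1.27 without vehicle 5, still called, and at -1.0 without vehicle 2 and vehicle 5, not called.

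Kcnq1 itself, a potassium channel gene, had 3.32 CPM after vehicle and 1.71 CPM after GW2580 (-0.96 ± 0.52, edgeR, adjusted p = 0.393), and Cd81, the most abundant gene of the domain, was at -0.11 ± 0.45. Beside Malat1 and Neat1, 1 of 8 genes fell, against 6.7% of all genes tested. This was Ltbp3, which binds latent TGF-β (-4.00 ± 1.21, edgeR, adjusted p = 0.280). It had 461 CPM in vehicle 5 and 4.25 to 13.9 CPM in the other 9 libraries, and without vehicle 5 it was at -0.32 and not called. The most abundant neighbour, Slc25a45, was at 0.69 ± 0.37 (edgeR, adjusted p = 0.392). Choroid plexus markers were highest in the same library (mean 10.3 log2 CPM in vehicle 5, 3.66 to 6.397 in the others), and their part in Cdkn1c, Osbpl5 and Ltbp3 was not tested.

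**Figure D4:**
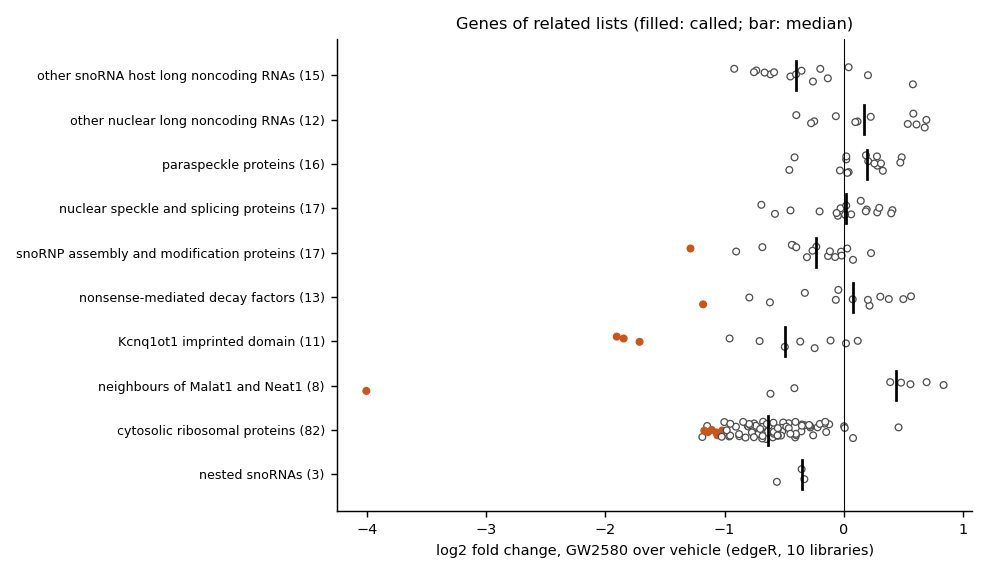
Log2 fold change of GW2580 over vehicle (horizontal axis, edgeR, all 10 libraries) of each tested gene in 10 related lists (rows, number tested in brackets), with called genes filled and a bar at the median. Of 194 genes 12 were called, all lower with GW2580, against 6.7% of all genes tested that fell. The genes listed as ribosomal proteins lie mostly below 0 around -0.64.

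Fragments that aligned uniquely but on no annotated exon, which include introns and intergenic sequence, made up 59.2%, 52.0%, 57.5%, 59.8% and 47.7% of unique fragments in vehicle 1 to 5. They made up 68.0%, 56.1%, 47.1%, 70.8% and 64.7% in GW2580 1 to 5. The groups overlapped (55.2 ± 5.21% and 61.3 ± 9.68%, SD, n = 5 each, exact permutation p = 0.246). The log2 TMM factor followed this percentage with r = 0.94 over the 10 libraries, so the choice of scaling bears on every relation to it.

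None of the 8 tested members changed with the percentage (edgeR, unadjusted p under 0.05), against 18.6% of all 28419 genes (4.61% rising and 14% falling with it). The smallest p was that of Kcnq1ot1, whose log2 CPM rose by 0.17 for 10 percentage points (edgeR, adjusted p = 0.477). Malat1 was at -0.19 (adjusted p = 0.898), Neat1 at -0.19 (adjusted p = 0.630), Miat at 0.30 (adjusted p = 0.505) and Gas5 at -0.26 (adjusted p = 0.692) for the same step. The estimates for Snhg1, Snhg8 and Snhg12 were -0.02, 0.20 and 0.06.

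Over the 10 libraries and 9 relations computed, the log2 CPM of Kcnq1ot1 had the closest relation to the percentage. Pearson r was 0.76 (permutation p = 0.00823) and Spearman rho 0.81 (permutation p = 0.00680), neither p adjusted for the 9 relations. This r was 0.71 within the groups and 0.75 without the 2 libraries farthest from the median percentage, GW2580 3 and GW2580 4. For Miat r was 0.47 (permutation p = 0.165, rho = 0.41, permutation p = 0.248) and -0.14 without these libraries, so it rested on them. The other members had r between -0.36 (Gas5, permutation p = 0.311) and 0.19 (Snhg6, permutation p = 0.599), and Malat1 had -0.23 (permutation p = 0.523).

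Without TMM scaling (trimmed mean of M values, which sets libraries to a common level for most genes), Kcnq1ot1 took 0.00372% of assigned fragments in GW2580 3 and 0.0106% in GW2580 4, the libraries with the lowest and the highest percentage on no exon, and r on the log2 scale was 0.94. In edgeR with library size alone the slope was called for 2 members, Kcnq1ot1 (0.06 log2 per point, adjusted p = 0.0345) and Miat (0.07, adjusted p = 0.0914), where 32.6% of all genes were called, 30.2% rising and 2.35% falling. Without vehicle 5 and GW2580 5, 1 member had a called slope, Gas5 at -0.08, against 16.7% of genes, 4.6% rising and 12.1% falling. Relative to all uniquely aligned fragments, r for Kcnq1ot1 was 0.73. Malat1 and Gas5 had r of -0.01 and 0.02 as shares of assigned fragments.

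**Figure D5:**
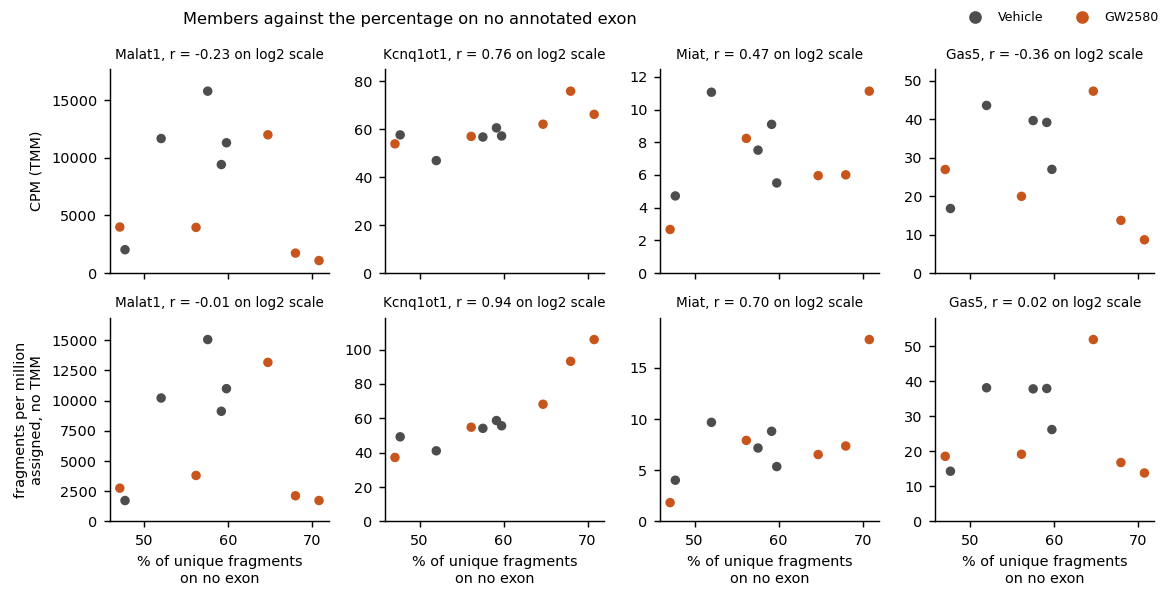
Level of Malat1, Kcnq1ot1, Miat and Gas5 (vertical axes, linear; upper row CPM after TMM scaling, lower row relative to all assigned fragments, without it) against the percentage of unique fragments that lay on no exon (horizontal axis), 1 point per library. On the log2 scale, Kcnq1ot1 has r = 0.76 with the percentage after TMM scaling, where its edgeR slope was not called (adjusted p = 0.477). Without TMM its r is 0.94, and 30.2% of all genes had a called rise in edgeR with library size alone. Malat1 has r = -0.23 and -0.01.

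Library size alone also moved the treatment comparison of all genes, whose median log2 fold change rose from -0.03 to 0.23 and whose calls turned from 1141 higher and 1905 lower to 2123 higher and 875 lower. No member was called under either scaling, against 10.5% of genes with library size alone (7.47% higher and 3.08% lower). No member had an interaction of sex and treatment at an unadjusted p under 0.05, against 2.52% of all genes in edgeR. With 2 males and 3 females per group this does not show that the sexes were alike. The smallest p was that of Gas5, with a log2 fold change of -1.30 ± 0.70 in males and -0.01 ± 0.57 in females (interaction, edgeR, adjusted p = 1.0).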

How the data were processed

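RNA of CD11b+ positively selected microglia from 5 vehicle and 5 GW2580 mice was sequenced by the authors. The deposited values are raw fragment counts per gene, made by aligning with STAR and counting with featureCounts 1.6.3 (per the file headers) on the GRCm38 RefSeq annotation without regard to strand, so antisense overlaps cannot be resolved. Uniquely aligned fragments on no exon, and those on several genes, are recorded beside the counts.

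Members and related lists were chosen with earlier results of these data known. Symbols were matched for 46029 of 46152 genes. The 28419 genes that exceeded 1 CPM in 3 or more libraries were fitted in edgeR 4.0.16 (R 4.3.3, TMM scaling, quasi-likelihood test) on treatment, or on the percentage on no exon. A gene was called where it changed by more than 2-fold at p below 0.05 before adjustment, the criteria of the study's methods, and Benjamini-Hochberg adjusted p-values over all genes are given beside it. Log2 CPM values in permutations, correlations and means over gene sets used a prior count of 2. Single values were compared by two-sided exact permutation of the 10 libraries, and correlations by 100000 permutations (scipy 1.17.1). CPM per kilobase used the counted exon length. Depth was 12550418 to 26079343 assigned fragments, and the lowest tested member had 18 counts in a library. The fit was tested on simulated data, in which 98.5% of 200 changed genes among 28419 were recovered for the treatment comparison. The simulated fold changes were all larger than those that the members had with all libraries, and recovery at the latter was not tested. DESeq2 1.42.0, other scalings, filters, covariates and left-out libraries were alternatives. Besides the members, the named genes were, per list, up to 3 called genes of smallest p and up to 2 of highest mean CPM, the nested snoRNA genes that passed the filter, overlapping genes (1 is not reported here), and the 3 genes most like Malat1 and Gas5. Snora24, Snord87, Snord47 and Cldn5 were named after their values were seen.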

Additional observations from a re-analysis of the deposited data

Results flagged for a closer look

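A library was far from the other 4 of its group, by Dixon's criterion for 5 samples (gap over range above 0.71), in 15 of the 50 groups of values looked at, where chance alone gives about 1 in 20. GW2580 5 was the highest of its group for Malat1 (11993 CPM), Snhg8 (18.7 CPM), Snhg12 (11.8 CPM), Trpm5 (6.16 CPM) and the ratio of Malat1 to Neat1 counts (70.4). Vehicle 5 was the lowest of its group for Snhg8 (2.42 CPM), Snhg12 (1.01 CPM), Rpl15 (61.4 CPM), the mean log2 CPM of the 4 tested hosts (1.74) and that of the 15 other hosts (1.09). It was the highest for Cdkn1c (457 CPM), Ltbp3 (461 CPM), Osbpl5 (79.2 CPM) and the difference between nuclear RNAs and hosts (5.08 in mean log2 CPM). Kcnq1ot1 was lowest in vehicle 2 (47.0 CPM). These groups share their libraries and are not independent.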

How the results depend on the processing

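The count of members called with GW2580 was 0 under all alternatives except without vehicle 5 and GW2580 5 (4) and over the single libraries left out (0 to 4, the 4 without GW2580 5). Of the 194 related genes, 12 were called with all libraries, 6 with library size alone, 2 with the percentage on no exon as a covariate, 103 without vehicle 5 and GW2580 5, and 3 to 89 with single libraries left out (89 without GW2580 5, 29 without vehicle 5). Over all genes, 10.7% were called with all libraries and 10.5% with library size alone. The share was 22.3% without vehicle 5 and GW2580 5, 17.6% without GW2580 5 and 12.9% without vehicle 5. The difference between nuclear and host medians (0.48) was 1.30 without vehicle 5 and GW2580 5, 0.30 with the percentage as a covariate and 0.13 to 1.14 with single libraries left out. With the replicate number as a replicate block, 23 related genes were called and 0 members. Libraries with the same number did not deviate together (r from -0.39 to 0.13, and 0 of 5 correlated best with their own number). Whether the numbers mark pairs of animals cannot be told from this. Of the slopes on the percentage, 2 members were called with library size alone and 1 without vehicle 5 and GW2580 5 (Gas5). The log2 fold change changed sign for Miat (0.24) and Snhg1 (0.073) with library size alone, for Cdkn1c with the percentage as a covariate (0.065), without vehicle 5 and GW2580 5 (0.32) and without vehicle 2 and vehicle 5 (0.51), and for Ltbp3 without the latter (0.13). With single libraries left out, Neat1 ranged from 0.19 to 0.64, Snhg8 from -1.48 to -0.18, Miat from -0.40 to 0.051, Snhg1 from -0.39 to 0.12 and Cdkn1c from -2.11 to 0.31. The cause was not tested.

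Slopes (log2 per percentage point), none called with all libraries, changed sign for Snhg8 (-0.019) and Snhg12 (-0.035) with the percentage of all records, and for Malat1 with treatment beside it (0.016). With library size alone they were 0.013 for Malat1, 0.021 for Neat1, 0.0092 for Gas5 and 0.036 for Snhg1, and with the replicate block 0.010 for Malat1 and 0.033 for Snhg1. Without GW2580 3 and GW2580 4 they were 0.016 for Malat1, 0.0044 for Neat1, -0.015 for Miat, 0.0063 for Gas5 and 0.057 for Snhg1, and without vehicle 5 and GW2580 5 they were -0.084 for Snhg8 and -0.085 for Snhg12. With single libraries left out, they ranged from -0.071 to 0.044 for Malat1, -0.030 to 0.0048 for Neat1, -0.053 to 0.0099 for Gas5, -0.033 to 0.030 for Snhg1, -0.037 to 0.070 for Snhg8 and -0.038 to 0.057 for Snhg12.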
